A study of Mus musculus with 16 samples.

Results

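The caveolins and cavins were examined as the 7 genes Cav1, Cav2, Cav3, Cavin1, Cavin2, Cavin3 and Cavin4, found in the deposited count table by their Ensembl identifiers, of 29730 genes in all. RNA was sequenced from the tibialis anterior, a fast muscle of the shin, in 16 samples from male C57BL/6N mice aged 7 weeks. There were 4 samples in each of 4 groups: WT given PBS (WT_PBS), WT given the antisense oligonucleotide ASO1 (WT_ASO), Bin1mck-/- mice given PBS (KO_PBS) and Bin1mck-/- mice given ASO1 (KO_ASO). The oligonucleotide lowers Dnm2, which encodes the membrane-cutting GTPase dynamin 2, and PBS is a saline buffer. The promoter behind the Bin1 deletion, the dose and the injection schedule are not stated in the sources used here.

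Caveolae are flask-shaped pits of the plasma membrane that buffer membrane tension and gather signalling proteins. Caveolins are hairpin proteins that insert into the inner leaflet, and cavins are cytoplasmic proteins that assemble as a coat around them. In muscle fibres, Cav3 and Cavin4 are the fibre-enriched members, and caveolae serve together with Bin1, a membrane-bending BAR domain protein, in the formation of the T-tubules that carry the action potential into the fibre. Cav1, Cav2 and Cavin2 are best known from the endothelium of vessels, from fat cells and from fibroblasts.

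The genes lie apart from each other, except for a pair of neighbours. Cav2 (ENSMUSG00000000058, chr6:17281185-17289115, GRCm38) and Cav1 (ENSMUSG00000007655, chr6:17306335-17341452) stand side by side on the plus strand of chromosome 6. Cav3 (ENSMUSG00000062694, chr6:112459505-112472872, plus strand) is on the same chromosome. Cavin1 (ENSMUSG00000004044) is at chr11:100956733-100970887 on the minus strand, and Cavin2 (ENSMUSG00000045954) at chr1:51289126-51302960 on the plus strand. Cavin3 (ENSMUSG00000037060) is at chr7:105480083-105482300 on the minus strand, and Cavin4 (ENSMUSG00000028348) at chr4:48663514-48673502 on the plus strand. All are protein coding, and none overlaps another gene with a mean of at least 10 counts.

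Whether the counts of 1 family member could contain reads of another was checked on the transcripts. The coding sequences of Cav1 and Cav3 were 71.8% identical over the aligned bases, those of Cav1 and Cav2 61.7% and those of Cav2 and Cav3 58.0%, and the cavins ranged from 58.4% to 66.8%. The longest run of identical bases between the transcripts of any of the 21 pairs of members was 16. The stretch of 60 coding bases below is shown because it is where Cav3 comes closest to Cav1. Capitals mark the bases that differ from Cav1, and all 3 lines read 5′ to 3′ on the plus strand of GRCm38, from the GENCODE transcripts.
Cav1: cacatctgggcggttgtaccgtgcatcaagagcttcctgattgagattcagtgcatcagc
Cav3: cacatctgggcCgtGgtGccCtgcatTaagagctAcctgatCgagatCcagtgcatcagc
Cav2: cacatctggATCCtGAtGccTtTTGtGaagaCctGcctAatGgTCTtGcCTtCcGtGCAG
The Cav1 line covers codons 126 to 145 in exon 3 of 3 (chr6:17339293-17339352), and the Cav3 line codons 99 to 118 in exon 2 of 2 (chr6:112472317-112472376). Here Cav3 shared 52 of 60 bases with Cav1. Cav2, whose codons 111 to 130 span an exon junction, shared 32 of 60.

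The promoters of Cav3 and Cavin4 are shown because these are the members that passed the edgeR test of KO_PBS vs WT_PBS in the results that follow. Each line holds the 250 bases before the start in RefSeq (GRCm38.p6), read 5′ to 3′ on the plus strand, with E-boxes in capitals. An E-box is the motif CANNTG, the recognition element of the myogenic regulatory factors, and it was searched on both strands.
Cav3: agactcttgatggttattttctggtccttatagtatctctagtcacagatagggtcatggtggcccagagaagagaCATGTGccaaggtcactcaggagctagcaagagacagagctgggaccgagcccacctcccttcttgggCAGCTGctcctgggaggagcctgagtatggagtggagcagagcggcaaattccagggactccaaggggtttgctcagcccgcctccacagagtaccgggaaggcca
Cavin4: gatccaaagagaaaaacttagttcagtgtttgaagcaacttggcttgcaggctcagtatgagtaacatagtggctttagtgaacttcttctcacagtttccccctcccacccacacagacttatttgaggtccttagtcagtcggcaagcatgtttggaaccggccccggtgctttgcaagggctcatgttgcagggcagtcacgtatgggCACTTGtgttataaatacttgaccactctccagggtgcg
The Cav3 window (chr6:112459255-112459504) held CATGTG at 174 and CAGCTG at 106 bases before the start, and the Cavin4 window (chr4:48663264-48663513) held CACTTG at 39 bases before it. Such matches are common, since 66.2% of 32851 RefSeq windows of this length held CANNTG and 13.0% held CAGCTG, which is itself a form of CANNTG. Of the 6 members found in the promoter table, Cav1 and Cav2 also held CANNTG. The TATA box letters TATAAA occurred in the windows of Cav1 and Cavin4 and in 12.4% of all windows. The GC box letters GGGCGG occurred in those of Cav1, Cav2 and Cavin1 and in 32.7% of all windows. The M-CAT letters CATTCC occurred in Cavin1 alone among the 6 and in 12.6% of all windows. The MEF2 motif and the CArG box, found in 2.92% and 1.47% of all windows, had no match in the 6.

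Sequencing gave 27591900 to 40862854 counts per sample, and the members held between 129 and 11327 counts in each, with Cavin3 the lowest of the 7 in every sample and so the one with the largest relative counting error. Bin1 measured 494.7 ± 40.6 CPM (counts scaled to the library total, with the TMM method of edgeR) in WT_PBS and 44.9 ± 3.27 CPM in KO_PBS (SD, n = 4 each), and Dnm2 was lower with ASO1 in WT (25.6 ± 2.72 CPM against 56.1 ± 5.51, SD, n = 4 each) and in Bin1mck-/- mice (24.8 ± 4.48 against 62.8 ± 3.63, SD, n = 4 each). As a check of the tissue label, 10 muscle fibre markers had at least 11863 counts each in every sample.

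The level of the members per kilobase of exon was compared first, within the WT_PBS muscle. Cavin4 was the most abundant, at 77.1 ± 12.7 CPM per kb (SD, n = 4). Cav1 (53.6 ± 3.02), Cav3 (48.8 ± 4.53) and Cavin1 (39.3 ± 5.35) came next on this scale, and the samples of Cav1 and Cav3 overlapped, as did those of Cav3 and Cavin1. Cavin2, which helps caveolae to bend, was at 23.9 ± 3.10, Cav2, the partner that joins Cav1 in hetero-oligomers, at 12.2 ± 2.60, and Cavin3, an adaptor for protein kinase C, at 3.46 ± 1.04 CPM per kb (SD, n = 4 each). The ranges of these last 3 did not overlap. In KO_PBS the order was Cavin4 (132 ± 15.3), Cav3 (81.2 ± 18.9), Cav1 (47.6 ± 2.53) and Cavin1 (43.2 ± 4.10 CPM per kb; SD, n = 4 each), and only the ranges of Cav1 and Cavin1 overlapped. Cav3 thus stood clear above Cav1 in KO_PBS, with a lowest sample of 68.1 CPM per kb against a highest Cav1 sample of 49.2. In KO_ASO the ranges of Cavin4, Cav1, Cav3 and Cavin1 overlapped from each to the next of these 4 (84.5 ± 13.0, 59.0 ± 11.2, 49.9 ± 6.12 and 44.6 ± 9.71 CPM per kb; SD, n = 4 each).

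**Figure D1:**
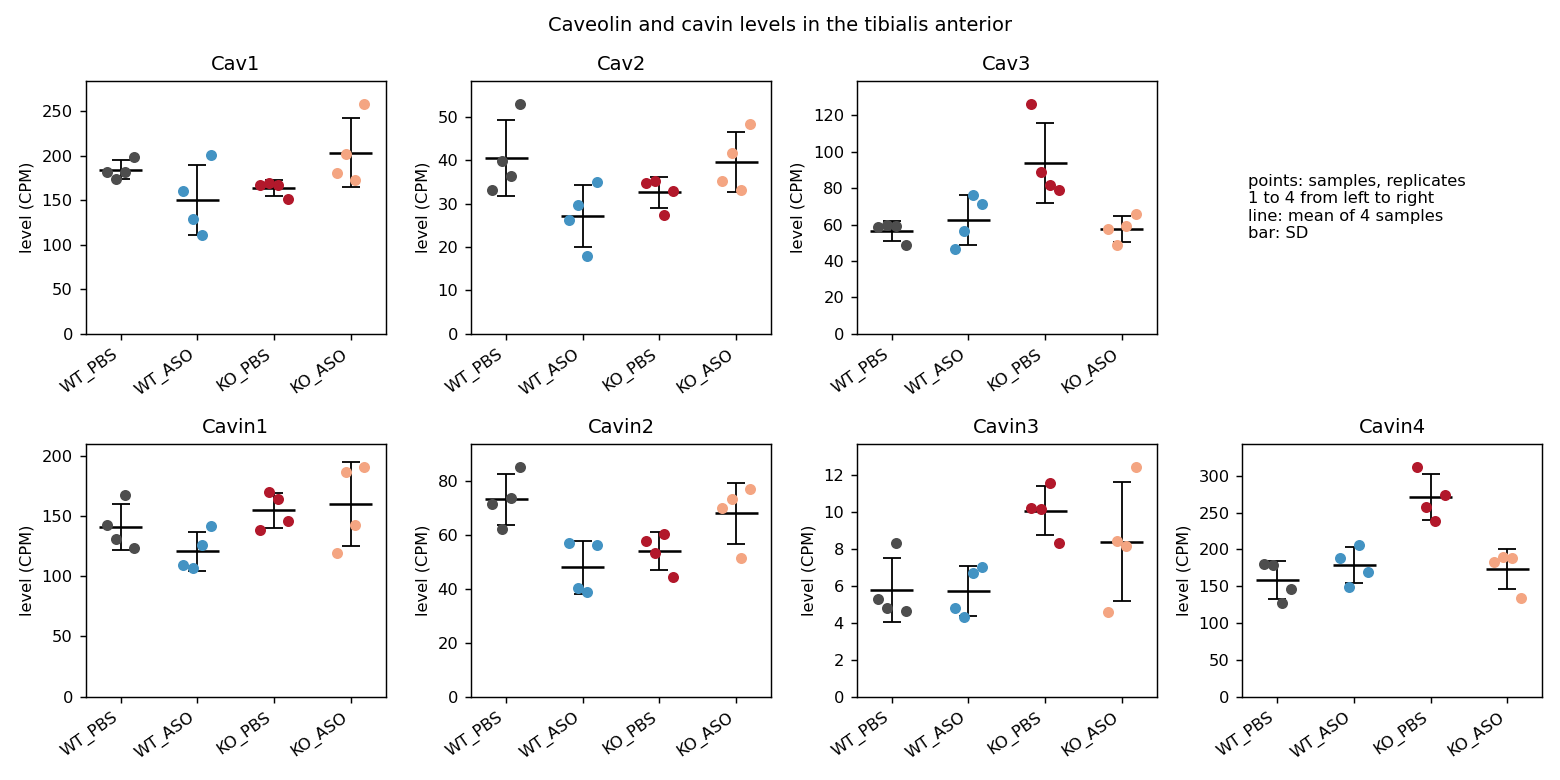
Levels of the 7 caveolin and cavin genes in CPM (TMM scaled), with 1 point per sample, the mean of each group of 4 as a line and the SD as a bar. Cav3 and Cavin4 sit highest in KO_PBS (93.97 and 270.6 CPM on average), above every WT_PBS and every KO_ASO sample, while Cavin2 is lower in every WT_ASO and KO_PBS sample than in any WT_PBS sample.

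The effect of the Bin1 deletion was taken from KO_PBS vs WT_PBS. The fibre-enriched caveolin Cav3 and the fibre-enriched cavin Cavin4 were higher in the knockout, each by about the same factor, 1.66-fold and 1.71-fold. The members of wide expression did not pass the test, with Cavin3 above and Cav1, Cav2 and Cavin2 below the WT_PBS mean. In all, 2 of 7 members were differentially expressed genes (DEGs, edgeR adjusted P value under 0.05), both higher. Among the 14960 genes tested, 12.6% were DEGs here and 7.43% were higher DEGs. This split depended on scaling, with 1112 higher and 766 lower DEGs with TMM and 1942 and 260 without it. The median log2-fold change (log2FC) of the 7 members was 0.13, against -0.01 for all genes tested.

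Cav3, the caveolin of striated muscle, measured 58.6, 59.6, 59.1 and 48.6 CPM in WT_PBS replicates 1 to 4 and 126, 89.1, 81.8 and 78.8 CPM in KO_PBS. The lowest knockout sample was above the highest WT_PBS sample, and KO_PBS replicate 1 was the highest of the 16. The log2FC was 0.74 (SE 0.16, edgeR adjusted P = 0.00757), with a 95% interval of 0.39 to 1.08.

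Cavin4, also known as MURC, which binds the muscle caveolae, measured 181, 179, 127 and 146 CPM in WT_PBS and 312, 257, 239 and 274 CPM in KO_PBS. Again the groups did not overlap. The log2FC was 0.77 (SE 0.14, edgeR adjusted P = 0.00201), with a 95% interval of 0.48 to 1.07. Both calls held in all 22 alternatives of scaling, filter, tool, block and left-out samples.

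Cavin3 had the largest fitted difference, from 5.29, 4.80, 8.30 and 4.61 CPM in WT_PBS to 10.2, 10.1, 11.6 and 8.31 CPM in KO_PBS. The groups were separated by the narrow gap between WT_PBS replicate 3 and KO_PBS replicate 4. It missed the threshold, with a log2FC that reached 0.80 (SE 0.26, edgeR adjusted P = 0.0525). It passed in 8 of the 22 alternatives, among them DESeq2 (adjusted P = 0.0213), limma-voom (adjusted P = 0.00773) and edgeR without WT_PBS replicate 3 (adjusted P = 0.0206), without KO_ASO replicate 1 (adjusted P = 0.0233) or without KO_ASO replicate 4 (adjusted P = 0.0284).

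Cavin1, the cavin required for caveolae in every tissue, measured 142, 131, 167 and 124 CPM in WT_PBS and 139, 170.1, 164 and 146 CPM in KO_PBS. The groups overlapped, and the log2FC of 0.13 (SE 0.14, edgeR adjusted P = 0.597) had a 95% interval of -0.17 to 0.44.

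The vessel-associated members were at or below the WT_PBS level. Cav1, the main caveolin outside muscle fibres, measured 182, 174, 182 and 199 CPM in WT_PBS and 168, 169.6, 168 and 151 CPM in KO_PBS. All its KO_PBS samples were lower, but the difference was small, at a log2FC of -0.17 (SE 0.15, edgeR adjusted P = 0.512). Cavin2 measured 71.3, 62.2, 73.5 and 85.2 CPM in WT_PBS and 57.7, 53.2, 60.3 and 44.5 CPM in KO_PBS. It too did not overlap, and its log2FC was -0.44 (SE 0.15, edgeR adjusted P = 0.0692). DESeq2 called it (adjusted P = 0.0466), as did edgeR on these 2 groups alone (adjusted P = 0.0401). Cav2 measured 33.1, 39.7, 36.4 and 52.9 CPM in WT_PBS and 34.7, 35.1, 27.5 and 32.9 CPM in KO_PBS, with overlap and a log2FC of -0.32 (SE 0.18, edgeR adjusted P = 0.289). Thus 5 of 7 members did not overlap between the groups, 3 higher (Cav3, Cavin3 and Cavin4) and 2 lower (Cav1 and Cavin2), where 20.4% of all genes tested did not overlap (10.5% higher and 9.85% lower).

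Markers of other cells moved in the same comparison, and in whole muscle a smaller number of cells of a type and less RNA per cell cannot be told apart. The log2FC of all 12 endothelial markers was negative, with a median of -0.25 and 1 lower DEG, and their summed level ran from 629 to 827 CPM in KO_PBS and from 707 to 954 CPM in WT_PBS. Of 9 mural cell markers 3 were lower DEGs, and their sum ran from 770.1 to 952 CPM in KO_PBS and from 976 to 1077 CPM in WT_PBS. All 10 macrophage markers were higher DEGs (77.1 to 190 CPM summed in KO_PBS, 27.3 to 48.2 in WT_PBS). Of 10 fibroblast markers 4 were higher DEGs (1428 to 2416 CPM in KO_PBS, 1126 to 1448 in WT_PBS). Of 10 genes of regenerating and denervated fibres 6 were higher and 1 was lower (144 to 219 CPM in KO_PBS, 63.1 to 64.8 in WT_PBS). Of 10 muscle fibre markers 3 were lower DEGs. The log2FC was negative in 8 of the 10 and positive in Myh1 (0.35) and Myh2 (0.48), which were not DEGs. The sum of the 10 ran from 135869 to 149301 CPM in KO_PBS and from 166164 to 206825 CPM in WT_PBS. No gene of 9 adipocyte and 6 Schwann cell markers was a DEG by edgeR, DESeq2 or limma-voom (1 and 0 with an unadjusted P under 0.05), with adipocyte sums of 543.8 to 737.5 CPM in KO_PBS and 637.8 to 871.1 in WT_PBS. Single adipocyte markers went the other way more often than the sum, with 6 of 9 log2FCs positive and a median of 1.30. Lep, an adipocyte hormone, was the only marker at 0 in any sample. The part of these cells in the levels of Cav3, Cavin4, Cavin3, Cav1 and Cavin2 was not tested.

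**Figure D2:**
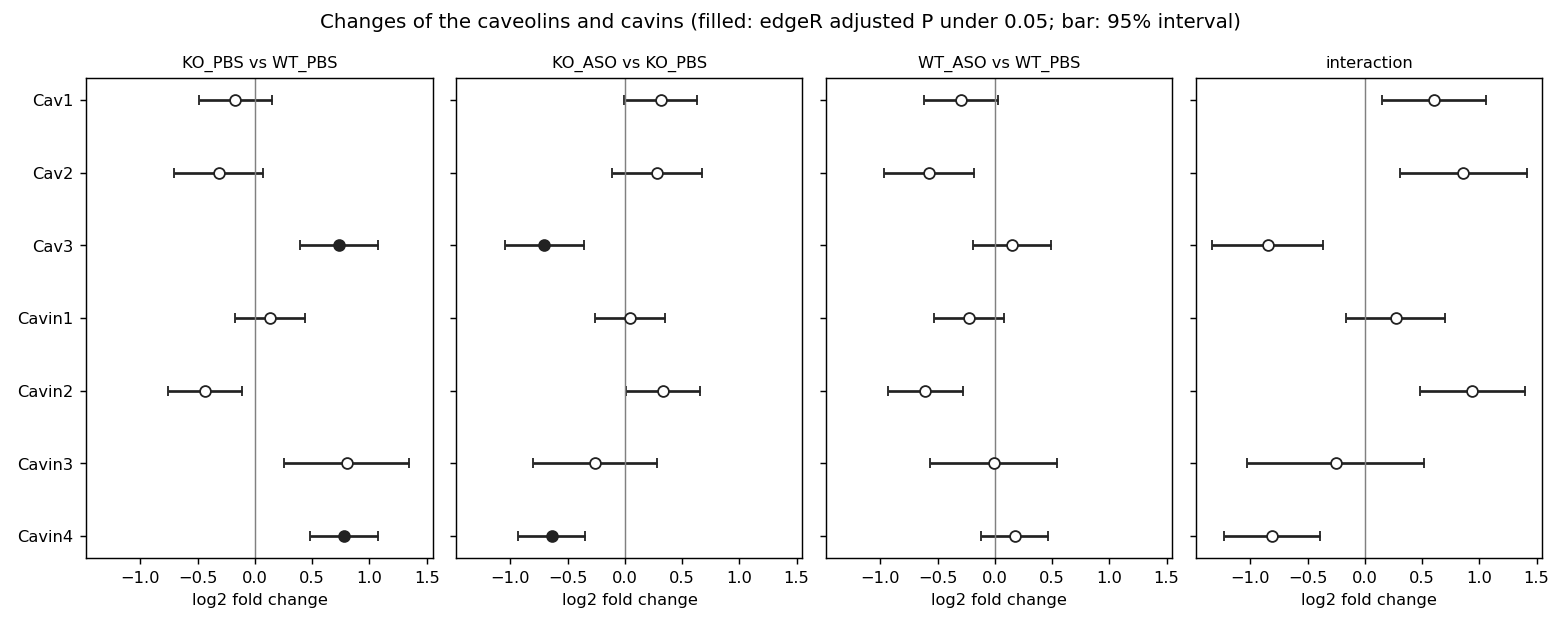
Log2-fold changes of the 7 members with 95% intervals in 4 edgeR comparisons, with filled points where the adjusted P value was under 0.05. Cav3 and Cavin4 are filled at 0.74 and 0.77 in KO_PBS vs WT_PBS and at -0.70 and -0.64 in KO_ASO vs KO_PBS, and no point is filled in WT_ASO vs WT_PBS or in the interaction.

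The difference after ASO1 in the knockout was taken from KO_ASO vs KO_PBS, which has no control oligonucleotide and shares the KO_PBS samples with the comparison before it. Cav3 and Cavin4 were lower after ASO1, at 0.614 and 0.641 of the KO_PBS level. The remaining members did not pass the test. In all, 2 of 7 members were DEGs, both lower, where 3.64% of all genes tested were DEGs and 2.83% were lower DEGs (120 higher and 424 lower, or 63 and 697 without TMM). The median log2FC of the members was 0.05, against 0.01 for all genes.

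Cav3 measured 57.6, 48.5, 59.0 and 65.7 CPM in KO_ASO, each below the lowest KO_PBS sample of 78.8 CPM. The log2FC was -0.70 (SE 0.16, edgeR adjusted P = 0.0260), with a 95% interval of -1.05 to -0.36. Cavin4 measured 182, 189.8, 188 and 134 CPM in KO_ASO, each below the lowest KO_PBS sample of 239 CPM. Its log2FC was -0.64 (SE 0.14, edgeR adjusted P = 0.0192), with a 95% interval of -0.94 to -0.34.

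Leaving out samples ended these calls more often than those of the genotype. Without KO_PBS replicate 1, neither gene passed (edgeR adjusted P = 0.0852 for Cav3, at a log2FC of -0.54, and 0.0711 for Cavin4, at a log2FC of -0.57). The call of Cav3 was also lost without KO_ASO replicate 1 (edgeR adjusted P = 0.0772), replicate 2 (0.0751) or replicate 3 (0.0610) and in a fit of these 2 groups alone (0.0540), where the log2FC was -0.70, -0.64, -0.72 and -0.70 in turn.

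Of the other members, Cav1 was the only further member without overlap, at 181, 202, 172 and 258 CPM in KO_ASO, each above the highest KO_PBS sample of 169.6 CPM. Its log2FC was 0.31 (SE 0.15, edgeR adjusted P = 0.304). Cavin2 measured 69.9, 73.2, 51.4 and 77.1 CPM in KO_ASO, at a log2FC of 0.33 (SE 0.15, edgeR adjusted P = 0.263), and Cav2 35.2, 41.6, 33.0 and 48.3 CPM, at a log2FC of 0.28 (SE 0.18, edgeR adjusted P = 0.479). Thus 3 of 7 members did not overlap between KO_ASO and KO_PBS, 1 higher and 2 lower, where 10.4% of all genes did not (4.04% higher and 6.34% lower). Cavin1 measured 119, 187, 143 and 191 CPM (log2FC 0.05, SE 0.14, edgeR adjusted P = 0.916). Cavin3 spread widest, at 4.56, 8.40, 8.13 and 12.4 CPM, from below the lowest WT_PBS sample to above the highest KO_PBS sample (log2FC -0.27, SE 0.26, edgeR adjusted P = 0.667).

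The marker lists moved here as well. The log2FC of all 12 endothelial markers was positive, with a median of 0.29 (0 DEGs by edgeR, 5 with an unadjusted P under 0.05, and 1 each by DESeq2 and limma-voom), and their sum ran from 828 to 935 CPM in KO_ASO. Of 10 macrophage markers 6 were lower DEGs, with a sum of 30.6 to 54.4 CPM in KO_ASO, and of 10 genes of regenerating and denervated fibres 4 were lower DEGs, with a sum of 79.2 to 129 CPM, while 5 of the 10 had a positive log2FC and 0 of them were called by edgeR (2 with an unadjusted P under 0.05). The log2FC of all 10 fibroblast markers was negative, as were those of Cav3 and Cavin4, with a median of -0.65, and their sum ran from 599.6 to 1957 CPM in KO_ASO against 1428 to 2416 CPM in KO_PBS. Of these 10, 1 was a lower DEG by edgeR, while DESeq2 called 4 and limma-voom 5. Of 10 muscle fibre markers 9 had a positive log2FC and 1 a negative one (-0.61). The median was 0.25 and the sum 147183 to 171461 CPM in KO_ASO (0 DEGs by edgeR and limma-voom, 2 by DESeq2 and 3 with an unadjusted P under 0.05). Of 9 mural markers 6 had a positive log2FC, with a median of 0.13 and a sum of 917 to 975 CPM in KO_ASO (0 DEGs by edgeR, DESeq2 or limma-voom, 1 with an unadjusted P under 0.05). The log2FC was negative in 6 of 9 adipocyte markers (median -0.52) and in 4 of 6 Schwann cell markers (median -0.05). Their part in the levels of the members was not tested.

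Against WT_PBS, the KO_ASO levels of Cav3 and Cavin4 were 102% and 109.6%, with log2FCs of 0.03 (95% interval -0.31 to 0.37) and 0.13 (-0.16 to 0.43). Cavin3 was at 146% of WT_PBS, at a log2FC of 0.54 (-0.01 to 1.09). No member was a DEG in KO_ASO vs WT_PBS by edgeR, DESeq2 or limma-voom, 0 of 7 had an unadjusted P under 0.05, against 8.22% of all genes, and 0.0401% of all genes were DEGs. All 7 overlapped, where 5.39% of all genes did not. The intervals bound the remaining difference of Cav3 and Cavin4 and do not show that they were equal. Of 10 genes of regenerating and denervated fibres 9 had a positive log2FC (median 0.82, 1 DEG, 5 called by DESeq2, 8 with an unadjusted P under 0.05). All 9 mural markers had a negative one (median -0.23, 0 DEGs), as had 8 of 10 muscle fibre markers (median -0.17). Positive values were found for 7 of 12 endothelial, 7 of 9 adipocyte, 7 of 10 macrophage, 5 of 6 Schwann cell and 4 of 10 fibroblast markers. Their part in the members' levels was not tested.

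The difference after ASO1 in WT muscle was taken from WT_ASO vs WT_PBS. Here Cav3 and Cavin4 were close to their PBS level, while Cavin2 and Cav2 had the lowest values relative to it, at 65.7% and 66.9%. No member was a DEG by edgeR, DESeq2 or limma-voom, and 2 of 7 (Cav2 and Cavin2) had an unadjusted P under 0.05. Of all genes tested, 6.45% had an unadjusted P under 0.05 and 0.00668% were DEGs. The median log2FC of the members was -0.22, against 0.00 for all genes.

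Cavin2 measured 56.8, 40.3, 38.8 and 56.1 CPM in WT_ASO, every sample below the lowest of WT_PBS at 62.2 CPM. Its log2FC was -0.61 (SE 0.15, edgeR adjusted P = 0.435). It was the only member without overlap in this comparison, where 3.22% of all genes did not overlap and 1.42% were lower. Cav2 measured 26.1, 29.7, 17.8 and 34.9 CPM, with WT_ASO replicate 4 inside the range of WT_PBS, and its log2FC was -0.58 (SE 0.19, edgeR adjusted P = 0.687). Cav1, the neighbour of Cav2, measured 160.1, 129, 112 and 201 CPM, at a log2FC of -0.29 (SE 0.15, edgeR adjusted P = 0.802). In these 3 genes WT_ASO replicate 3 was the lowest. The coefficient of variation of Cav1 was 26.1% in WT_ASO and 5.64% in WT_PBS.

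Cav3 in WT_ASO measured 46.6, 56.2, 76.1 and 71.1 CPM, on either side of the WT_PBS samples, at a log2FC of 0.15 (95% interval -0.20 to 0.49, edgeR adjusted P = 0.925). Cavin4 measured 189, 149, 206 and 169 CPM, at a log2FC of 0.17 (-0.12 to 0.47, edgeR adjusted P = 0.881). Cavin1, at 109, 107, 126 and 141 CPM, and Cavin3, at 4.81, 4.31, 6.71 and 7.03 CPM, overlapped with WT_PBS as well. All 12 endothelial markers had a negative log2FC in WT_ASO vs WT_PBS, with a median of -0.26 and a summed level of 595 to 824 CPM in WT_ASO, and 8 of 9 mural markers did too, with a sum of 722 to 924 CPM. The other lists did not share this direction throughout. The log2FC was positive in 8 of 9 adipocyte markers (median 1.23, 788.1 to 1052 CPM summed in WT_ASO), in all 10 macrophage markers (median 0.48), in all 6 Schwann cell markers (median 0.45), in 8 of 10 muscle fibre markers (median 0.18), in 6 of 10 genes of regenerating and denervated fibres (median 0.06) and in 3 of 10 fibroblast markers (median -0.16). No marker of the 8 lists was a DEG by edgeR, DESeq2 or limma-voom. With an unadjusted P under 0.05 there were 4 endothelial, 7 mural, 2 fibroblast, 1 adipocyte and 1 regenerating or denervated fibre marker. Their part in the levels of the members was not tested.

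Whether the difference after ASO1 was unequal in the 2 genotypes was asked with the interaction term, (KO_ASO vs KO_PBS) minus (WT_ASO vs WT_PBS). No member was a DEG by edgeR (0 of 7), where 0.575% of all genes were, but 5 of 7 had an unadjusted P under 0.05, against 12.7% of all genes, and DESeq2 called 3 while limma-voom called 0. The estimates lay on either side of 0. Cav3 had an interaction log2FC of -0.85 (SE 0.23, edgeR adjusted P = 0.116, DESeq2 adjusted P = 0.0257) and Cavin4 one of -0.81 (SE 0.20, edgeR adjusted P = 0.0747, DESeq2 adjusted P = 0.00959). Cavin2 had one of 0.94 (SE 0.22, edgeR adjusted P = 0.0629, DESeq2 adjusted P = 0.00494), and without KO_ASO replicate 3 it passed with edgeR (adjusted P = 0.0468). Cav2 (0.86, SE 0.26) and Cav1 (0.60, SE 0.22) were positive with edgeR adjusted P = 0.161 and 0.240, and Cav2 passed in edgeR with the replicate block (adjusted P = 0.0280). Cavin1 (0.27, SE 0.20) and Cavin3 (-0.25, SE 0.37) had intervals that held 0. The interaction log2FC of all 12 endothelial markers was positive, as for Cav1, Cav2, Cavin1 and Cavin2, with a median of 0.53 and 1 DEG (7 with an unadjusted P under 0.05). That of all 10 macrophage markers was negative, as for Cav3 and Cavin4, with a median of -2.06 and 2 DEGs (10 with an unadjusted P under 0.05). Of the other lists, 8 of 9 mural markers were positive (median 0.56), as were 6 of 10 muscle fibre markers (median 0.04). Negative values were found for 8 of 9 adipocyte markers (median -1.86), opposite to Cav1, Cav2 and Cavin2, 8 of 10 fibroblast markers (median -0.63), 5 of 6 Schwann cell markers (median -0.55) and 7 of 10 genes of regenerating and denervated fibres (median -0.53, 1 DEG). The part of these cells in the members' values was not tested.

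Between the treated groups, KO_ASO vs WT_ASO, the 5 members other than Cav3 and Cavin4 were all above the WT_ASO mean, by log2FCs of 0.40 (Cavin1) to 0.55 (Cavin3). No member was a DEG by edgeR, DESeq2 or limma-voom, 4 of 7 had an unadjusted P under 0.05, against 15.1% of all genes, and 0.0735% of all genes were DEGs (6 higher and 5 lower, or 14 and 2 without TMM). Cav3 and Cavin4 had log2FCs of -0.12 (95% interval -0.46 to 0.23) and -0.04 (-0.33 to 0.26), and the latter took the other sign without TMM scaling (0.06). All 7 members overlapped between the groups, where 6.97% of all genes did not. All 12 endothelial markers had a positive log2FC here, as had these 5 members, with a median of 0.31 (0 DEGs by edgeR and limma-voom, 2 by DESeq2 and 4 with an unadjusted P under 0.05). Positive log2FCs were also found for 9 of 10 genes of regenerating and denervated fibres (median 0.81, 4 called by DESeq2, 5 with an unadjusted P under 0.05), 7 of 9 mural markers (median 0.11) and 7 of 10 fibroblast markers (median 0.08). Most log2FCs were negative for the muscle fibre (8 of 10, median -0.33), adipocyte (8 of 9, median -0.47), macrophage (9 of 10, median -0.25) and Schwann cell markers (5 of 6, median -0.32). Of the muscle fibre markers, DESeq2 called 2, and 5 had an unadjusted P under 0.05. No marker was a DEG by edgeR, and the part of these cells in the members' levels was not tested.

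The make-up of each family was then followed in each sample as the share of the summed per-length level, which no single-gene test gives. Cav3 made up 44.6%, 45.1%, 44.4% and 36.3% of the caveolin level in WT_PBS and 64.9%, 56.3%, 55.4% and 55.9% in KO_PBS. Per kilobase of exon it thus exceeded Cav1 and Cav2 together in every KO_PBS sample and in none of WT_PBS. That order depends on the lengths used. In CPM, without division by length, the highest KO_PBS sample of Cav3 (126) was below the lowest of Cav1 (151). In KO_ASO it made up 44.1%, 37.1%, 46.0% and 38.9%, each below every KO_PBS sample. The mean share was 42.6% ± 4.22 in WT_PBS, 58.1% ± 4.51 in KO_PBS and 41.5% ± 4.20 in KO_ASO (SD, n = 4 each). Both differences gave P = 0.0286 in a two-sided exact permutation test, the smallest that 4 samples against 4 allow (0.0429 after Benjamini-Hochberg adjustment over 6 tests). The shares were computed from the same counts as the levels, whose separation was already known, so these P values are no independent support for it.

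Cavin4 made up 57.0%, 59.4%, 45.0% and 52.1% of the cavin level in WT_PBS and 70.5%, 63.8%, 61.6% and 68.9% in KO_PBS. In KO_ASO its share was 60.1%, 53.3%, 59.8% and 43.1%. The means were 53.4% ± 6.35, 66.2% ± 4.17 and 54.1% ± 7.97 (SD, n = 4 each), and the groups were again apart, with P = 0.0286 for KO_PBS vs WT_PBS and for KO_ASO vs KO_PBS (two-sided exact permutation test, 0.0429 after adjustment).

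In WT_ASO the shares lay between, at 51.1% ± 9.01 for Cav3 and 62.1% ± 3.82 for Cavin4 (SD, n = 4 each). The differences from WT_PBS did not pass, with two-sided exact permutation P = 0.143 for Cav3 and 0.0857 for Cavin4 (0.143 and 0.103 after adjustment). WT_ASO replicate 3 had a Cav3 share of 63.5%, within the range of KO_PBS. Without it, the difference of the Cav3 share from WT_PBS was 4.31 percentage points instead of 8.46. A share can move through any member of its family, and no caveolin or cavin passed the test in this comparison.

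**Figure D3:**
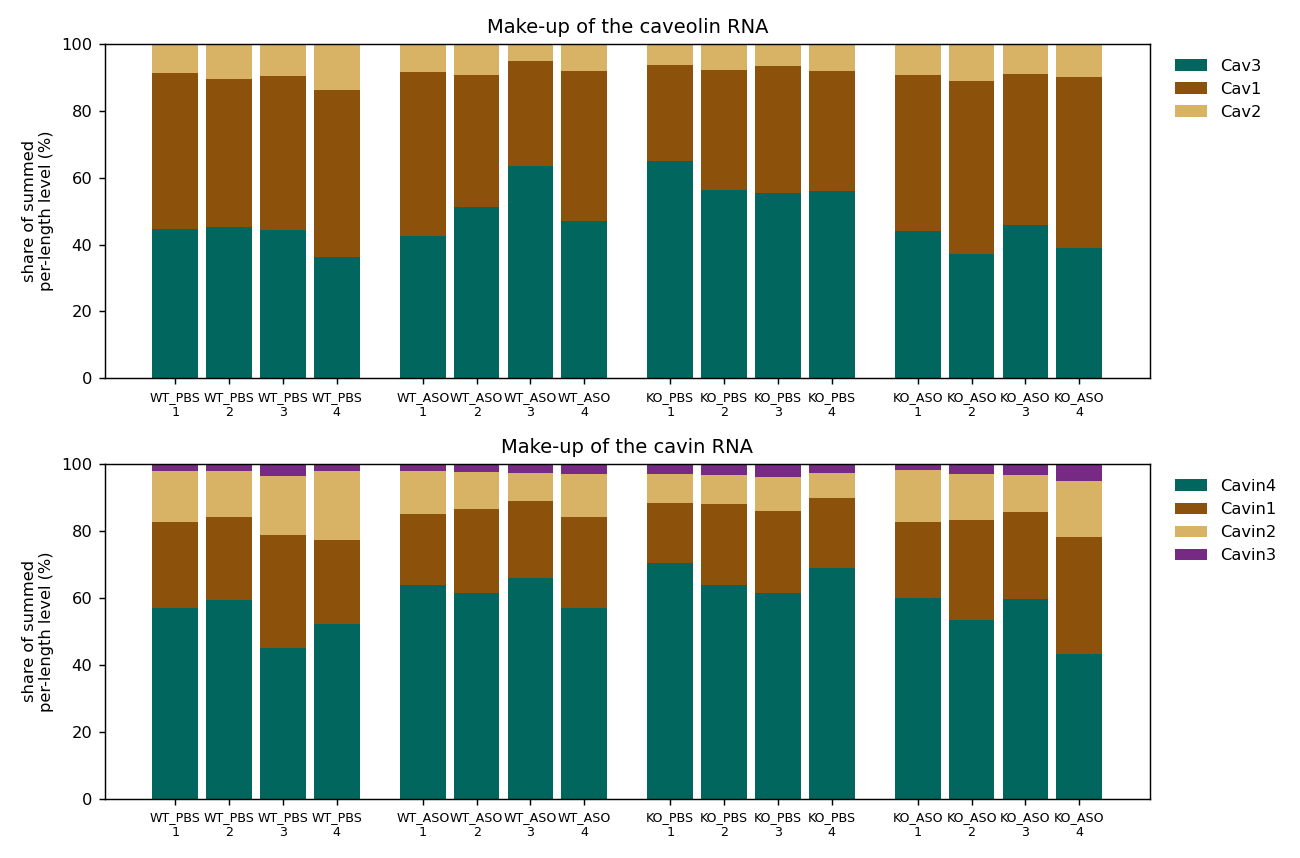
Share of each gene in the summed per-length level of the caveolins (upper panel) and of the cavins (lower panel), in percent, with 1 bar per sample. Cav3 takes 55.4% to 64.9% of the caveolin level in the 4 KO_PBS samples and 36.3% to 45.1% in WT_PBS, and Cavin4 takes 61.6% to 70.5% of the cavin level in KO_PBS and 45.0% to 59.4% in WT_PBS.

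Partners of caveolae were taken from a list of 12 genes with known roles at these membranes. The list holds the F-BAR proteins Pacsin1, Pacsin2 and Pacsin3, the membrane ATPases Ehd1, Ehd2, Ehd3 and Ehd4, of which Ehd2 sits at the caveolar neck, the membrane repair proteins Dysf and Trim72, which bind Cav3, the nitric oxide synthases Nos1 and Nos3, held by caveolins, and the receptor Ror1. In KO_PBS vs WT_PBS, 3 of the 12 were DEGs, all higher, with a median log2FC of 0.19 over the list, against -0.01 for all genes and 12.6% of all genes called. Dysf, or dysferlin, ran from 158 to 175 CPM in KO_PBS and from 101 to 128 in WT_PBS (log2FC 0.59, SE 0.10, edgeR adjusted P = 0.00127). Trim72, or MG53, ran from 287 to 399.6 CPM and from 172.5 to 226 CPM (log2FC 0.72, SE 0.13, edgeR adjusted P = 0.00175). Ehd4 ran from 118 to 192 CPM and from 66.6 to 79.6 CPM (log2FC 1.03, SE 0.18, edgeR adjusted P = 0.00177). Including Pacsin3, which was not a DEG (log2FC 0.21, SE 0.10, edgeR adjusted P = 0.197), 4 of 12 partners were higher without overlap, where 10.5% of all genes were (20.4% in both directions).

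In KO_ASO vs KO_PBS, 1 of 12 partners was a DEG, Dysf, with 119 to 134 CPM in KO_ASO and a log2FC of -0.42 (SE 0.10, edgeR adjusted P = 0.0307), where 3.64% of all genes were DEGs and 2.83% were lower DEGs. This call was lost without KO_PBS replicate 1 (edgeR adjusted P = 0.0944), without KO_PBS replicate 4 (0.0634) and without KO_ASO replicate 1 (0.0963) or replicate 3 (0.0705), where the log2FC was -0.40, -0.42, -0.40 and -0.43 in turn. Trim72 (log2FC -0.44, SE 0.13, edgeR adjusted P = 0.0686) and Ehd4 (-0.56, SE 0.18, edgeR adjusted P = 0.0984) did not pass in the main edgeR fit. DESeq2 called them (adjusted P = 0.0254 and 0.0457), as did edgeR without TMM (adjusted P = 0.0198 and 0.0414). Trim72 passed in 5 of 22 alternatives, limma-voom among them (adjusted P = 0.0212), and Ehd4 in 3. In WT_ASO vs WT_PBS, 0 of 12 partners were DEGs by edgeR, DESeq2 or limma-voom, and 3 had an unadjusted P under 0.05, where 0.00668% of all genes were DEGs and 6.45% had an unadjusted P under 0.05. In the interaction edgeR called 0 of 12 and limma-voom 0, with 5 at an unadjusted P under 0.05, where 12.7% of all genes were. DESeq2 called Dysf (adjusted P = 0.00834) and Trim72 (0.0465) there, and edgeR without TMM called Dysf (0.0433), against edgeR adjusted P = 0.0710 and 0.143 with TMM. Against WT_PBS, 0 of 12 partners were DEGs in KO_ASO by the 3 tools, and 3 had an unadjusted P under 0.05, where 8.22% of all genes had. Of the 12, Trim72 alone did not overlap there, where 5.39% of all genes did not. It was higher, at 230.1 to 259 CPM in KO_ASO (log2FC 0.28, SE 0.13, edgeR adjusted P = 0.578). In KO_ASO vs WT_ASO the partners called numbered 0 by each tool, and 2 had an unadjusted P under 0.05, against 15.1% of all genes.

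**Figure D4:**
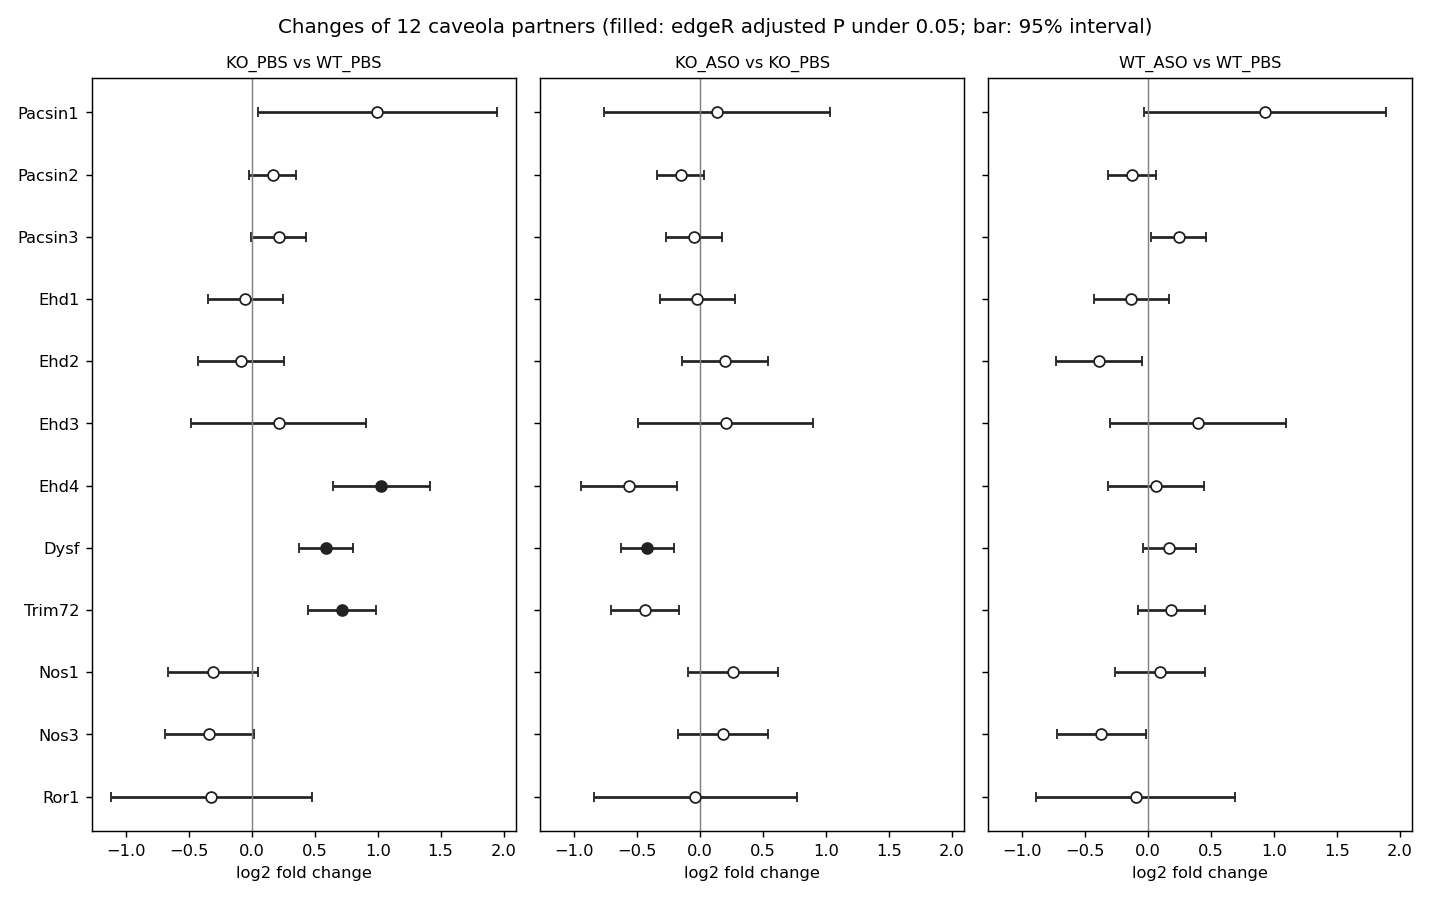
Log2-fold changes of 12 caveola partners with 95% intervals in 3 edgeR comparisons, with filled points where the adjusted P value was under 0.05. Ehd4 (1.03), Dysf (0.59) and Trim72 (0.72) are filled in KO_PBS vs WT_PBS, Dysf (-0.42) in KO_ASO vs KO_PBS, and none in WT_ASO vs WT_PBS.

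The members differed in how much of their variation lay between the groups. Of the variance of log2 CPM over the 16 samples, 72.3% lay between the 4 group means for Cavin4, 64.0% for Cav3, 58.8% for Cavin2, 50.1% for Cavin3, 47.6% for Cav2, 41.6% for Cav1 and 38.9% for Cavin1. The means of 4 groups take up part of the variance even where the groups do not differ. These shares were not tested or set against all genes. As a description over the same 16 samples, which share library depth and group, Cav1 went with Cavin2 (Pearson r = 0.84) and Cav2 (0.84), and Cavin1 with Cavin3 (0.83). These values were 0.80, 0.75 and 0.88 for deviations from the group means. Cav3 and Cavin4 went together over the 16 samples (r = 0.72) but little within groups (r = 0.15), so their likeness lay in the group means. Against the summed level of the endothelial markers, the r within groups was 0.75 for Cavin2, 0.66 for Cav1, 0.55 for Cavin3 and 0.50 for Cavin1. It was 0.10 for Cav2, 0.01 for Cav3 and -0.33 for Cavin4.

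The genes most like each member over the 16 samples, among 14953 others, are given by the same r as a description. For Cav3 these were Csdc2 (0.95), an RNA-binding protein, and Angpt4 (0.92), an angiopoietin, and for Cavin4 Dpy19l3 (0.94), a C-mannosyltransferase, and Klhl30 (0.92). For Cav1 they were Tspan2 (0.91), a tetraspanin, and Tacc1 (0.90), and for Cav2 Zfp979 (0.92), a zinc finger protein, and Slc16a1 (0.92), a lactate transporter. Those of Cavin1 were Dll1 (0.96), a Notch ligand, and Sox18 (0.92), an endothelial transcription factor. Cavin2 was closest to Tjp1 (0.90), a tight junction scaffold, and Pcdh1 (0.89), a protocadherin. Cavin3 was closest to Manf (0.94), a protein of the endoplasmic reticulum, and Csk (0.93), a kinase that restrains Src. Dll1 and Manf overlap another counted gene on the other strand, so that their values depend on how strand was counted.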

How the data were processed

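The deposited values are raw counts by the authors, 1 row per Ensembl gene, without normalization. Per the submitters' processing notes, the tools were HTSeq 0.6.1p1, STAR 2.5.3a, Bowtie2 2.2.8 and cutadapt 1.10, on GRCm38 (mm10), and libraries were made with a stranded messenger RNA kit per the labels. Annotation release, read length and the strand setting of the counting are not stated in the sources used here. The members, gene lists and tests were chosen with earlier results of these data known. All 29730 identifiers matched GENCODE M21, the source of symbols, coordinates, exon lengths and transcripts.

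edgeR 4.0.16 (R 4.3.3) was run on the deposited counts with filterByExpr (14960 genes kept, 7 of 7 members among them), TMM scaling and a robust quasi-likelihood fit over all 16 samples. Benjamini-Hochberg adjusted P values over all genes tested were called under 0.05. The median log2FC of all genes in KO_PBS vs WT_PBS was -0.01 with TMM and 0.14 without it, and every change is given on the TMM scale. The script was tested on simulated data. P values weigh each difference between groups against the spread between the samples within them, as labelled. Within groups, log2 CPM correlated at 0.974 to 0.988, and no pair of libraries agreed within counting noise. DESeq2 1.42.0, limma-voom with sample quality weights (limma 3.58.1), no TMM, no filter, a replicate block, the compared groups alone and leaving out each sample were the alternatives. Genes named were all members, Bin1, Dnm2, the partners called in KO_PBS vs WT_PBS or KO_ASO vs KO_PBS, and the 2 genes most like each member. Shares used per-length levels and exact permutation tests in SciPy 1.17.1.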

Additional observations from a re-analysis of the deposited data

Results flagged for a closer look

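A sample standing apart from the other 3 of its group (by Dixon's 95% limit on the gap to the nearest over the whole range) was found in 6 of 56 groups tested, and chance alone gives about 1 in 20. Cav1 was lowest in KO_PBS replicate 4, at 151 CPM against 168 to 169.6 CPM. Cav3 was lowest in WT_PBS replicate 4, at 48.6 CPM against 58.6 to 59.6 CPM, and its share of the caveolin level was also lowest there, at 36.3% against 44.4% to 45.1%. The Cav3 share was highest in KO_PBS replicate 1, at 64.9% against 55.4% to 56.3%. Cavin4 was lowest in KO_ASO replicate 4, at 134 CPM against 182 to 189.8 CPM. Dysf was highest in WT_ASO replicate 3, at 153 CPM against 113 to 117 CPM.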

How the results depend on the processing

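The calls of Cav3 and Cavin4 in KO_PBS vs WT_PBS held in 22 of 22 alternatives, and those in KO_ASO vs KO_PBS in 17 and 21 of 22. The number of members called in KO_PBS vs WT_PBS was 2. It was 3 without TMM, with limma-voom and with the replicate block, and 4 with DESeq2 and with the compared groups alone. In KO_ASO vs KO_PBS it was 2, and 1 with the compared groups alone. In the interaction it was 0, and 3 with DESeq2 and 1 with the replicate block (Cav2, adjusted P = 0.0280). DEGs in KO_ASO vs KO_PBS numbered 544, and 1045 with DESeq2, 1186 with limma-voom (run with sample quality weights) and 300 with the compared groups alone. In WT_ASO vs WT_PBS they numbered 1, and 35 with DESeq2, 3 without a filter and 2 with the replicate block. In KO_ASO vs WT_ASO they numbered 11, and 402 with DESeq2, 44 with the block, and 2 with limma-voom and with the compared groups alone. In KO_ASO vs WT_PBS they numbered 6 and in the interaction 86, and 87 and 371 with DESeq2. The cause of these differences was not tested.

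Leaving out each sample gave 997 to 2137 DEGs in KO_PBS vs WT_PBS, 208 to 831 in KO_ASO vs KO_PBS, 1 to 4 in WT_ASO vs WT_PBS, 2 to 19 in KO_ASO vs WT_ASO, 4 to 11 in KO_ASO vs WT_PBS and 23 to 102 in the interaction. Members called ran from 2 to 3 in KO_PBS vs WT_PBS, 0 to 2 in KO_ASO vs KO_PBS and 0 to 1 in the interaction. All share differences kept their sign, with that of Cav3 in WT_ASO vs WT_PBS running from 4.31 to 11.3 percentage points (4.31 without WT_ASO replicate 3), although 4 samples against 3 cannot give an exact permutation P below 0.0571. Signs turned for small differences that were not called. Without TMM these were Cavin1 in KO_ASO vs KO_PBS (-0.0369), Cavin4 and Dnm2 in KO_ASO vs WT_ASO (0.0644 and 0.0561) and Cav2 in KO_ASO vs WT_PBS (0.0265). With limma-voom they were Cavin1 in KO_ASO vs KO_PBS (-0.0550), Cavin3 in WT_ASO vs WT_PBS (0.0286) and Cavin4 in KO_ASO vs WT_ASO (0.0274), and with DESeq2 Dysf in KO_ASO vs WT_ASO (-0.0022). Leaving out a sample turned the sign in 9 uncalled comparisons, with log2FCs from -0.0494 to 0.1649 for Cavin1 in KO_ASO vs KO_PBS, from -0.1277 to 0.2222 for Cavin3 and -0.0843 to 0.1784 for Ehd4 in WT_ASO vs WT_PBS, from -0.1146 to 0.0674 for Cavin4, -0.1790 to 0.0280 for Dnm2 and -0.0439 to 0.1154 for Dysf in KO_ASO vs WT_ASO, and from -0.1469 to 0.1187 for Cav2, -0.0364 to 0.0982 for Cav3 and -0.1758 to 0.0027 for Cavin2 in KO_ASO vs WT_PBS.

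Samples with the same replicate number deviated together more than others, with a mean correlation of 0.12 over 24 pairs (lowest -0.08). For pairs of different number it was -0.04 over 72 pairs, and 14 of 16 samples were closest to their own number. The sample titles give the number only as a replicate, so the main fit did not take the numbers as pairs. With the replicate block, DEGs in KO_PBS vs WT_PBS numbered 2322 against 1878 in the main fit. The replicate block changed no member's call beyond Cav2 in the interaction and Cavin3 in KO_PBS vs WT_PBS (adjusted P = 0.0325), and it called Ehd4 in KO_ASO vs KO_PBS (adjusted P = 0.0299). Differences of shares within the block gave a sign-flip P of 0.125, the smallest for 4 pairs (exact, two-sided), for both shares in KO_PBS vs WT_PBS and KO_ASO vs KO_PBS.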
